A study of Canis lupus familiaris with 6 samples.

Results

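The genes described here encode the enzymes that make cholesterol, fatty acids and glycerolipids, together with the proteins that control them. They were taken from a list of 40 gene symbols, by matching each symbol to probe sets that carry it as their only gene symbol in the array annotation. This gave 87 probe sets for 38 of the 40 genes, out of 42924 probe sets and 15115 named genes in all. IDI1 and ACACB had no such probe set.

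The cells were MDCKII, a strain of Madin-Darby canine kidney cells that forms a polarized epithelium in culture, and their RNA was read on Affymetrix canine arrays. The 2D group (3 arrays) was grown as a confluent monolayer on plastic. The 3D group (3 arrays) was plated on a layer of 100 µl Matrigel, a basement membrane extract, in a 60 mm dish with 2% Matrigel in the medium, where the cells form cysts around a lumen. Both groups were in MEM, and total RNA (4 µg per labelling) was taken 36 h after plating. Both come from the same cell line, no gene was altered in either, and the medium's serum or lipid content is not stated in the sources used here. The study asked which genes are raised in 3D, as candidates for a role in lumen formation.

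Cholesterol is built from acetyl-CoA through mevalonate, isoprenoid chains, squalene and lanosterol, and long-chain fatty acids are built from acetyl-CoA by way of malonyl-CoA. Both routes are controlled by the sterol regulatory element-binding proteins (SREBPs), transcription factors held in the endoplasmic reticulum membrane together with the escort protein SCAP. INSIG proteins retain this complex when sterols are plentiful. When sterols fall, SCAP carries the SREBPs to the Golgi, where proteases release the part that enters the nucleus and activates the genes of both routes. In epithelial cells these lipids supply the apical and basolateral membranes.

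The deposited log2 values lay on more than 1 scale. The arrays of replicates 2 and 3 had medians of 7.06 to 7.08, while those of replicate 1 had medians of 5.42 in 2D and 5.26 in 3D and held 246 and 413 values below 0. Across probe sets the Pearson correlation was 0.982 to 0.997 among the replicate 2 and 3 arrays. It was 0.888 between the 2 replicate 1 arrays, and 0.861 to 0.872 between these and the others. Differences were therefore tested on the 4 arrays of replicates 2 and 3 with limma (2 arrays per group), and the replicate 1 difference is given beside them, untested, as 1 array against 1. The labels call the replicates biological but do not say what was separate, so p-values measure the spread between these arrays. The poly-A spike-in controls averaged 9.66 on 3D replicate 2, against 8.64 to 8.82 on the other 3 tested arrays. The 3' minus 5' log2 difference of the control probe sets, a sign of RNA quality, was higher in 3D for 1 actin set (-0.07 and -0.02 in 2D, 0.10 and 0.32 in 3D) and 1 GAPDH set (0.20 and 0.16, 0.31 and 0.40). It was lower for the other actin set (1.90 and 2.07, 1.80 and 1.79) and overlapped for the other GAPDH set. In replicate 1 the actin set that was lower in 3D on the tested arrays read 2.22 in 2D and 2.85 in 3D. The GAPDH set that was higher in 3D on the tested arrays read 1.67 in 2D and 1.47 in 3D there. Of 9 measured markers of kidney epithelium, 9 lay above the array median on all 6 arrays. In all, 0 of 36 cell type markers passed the test, and 2 had an unadjusted limma p under 0.05, against 3816 of all 15115 genes. Among 27 markers of adipocytes, hepatocytes, fibroblasts, leukocytes and endothelium, 5 were above the median on all 4 tested arrays, 2 of them on all 6, and 1 was above the upper quartile on the tested arrays. Whether a transcript level fell per cell or in fewer of the cells cannot be told apart in such bulk RNA.

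On the tested arrays, 1 probe set each of MVD (mevalonate route), ACLY and ACACA (first steps of fatty acid synthesis) and ELOVL6 (an elongase) read lower in 3D. For DGAT2 (last step of triglyceride synthesis) 1 probe set read higher. The brightest ACLY and ACACA probe sets and the other DGAT2 probe sets did not pass, and MVD was higher in 3D in replicate 1. At a limma adjusted p under 0.05, 4 of the 87 probe sets were lower in 3D, against a background of 2.96% of all probe sets, and 1 was higher, against 3.65%. The lower ones belonged to MVD, ACLY, ACACA and ELOVL6 and the higher one to DGAT2. With each gene represented by its probe set of highest mean level, 2 of 38 genes were lower (MVD and ELOVL6, against 3.09% of all genes). By the same rule 1 was higher (DGAT2, against 4.2%). These counts are near the background, so the calls do not set the lipid genes apart from the rest of the array. The called DGAT2 probe set was the brightest of its gene only through its 3D values. On 2D replicates 2 and 3 it averaged 7.15, against 7.175 to 7.62 for the others, so its gene-level call partly follows from this choice. The median log2 difference was -0.1275 over the 38 genes and -0.01 over all 15115 genes. An unadjusted limma p under 0.05 was found for 9 of the 38 genes, against 3816 of all 15115, which is the background for the class counts below. The calls needed all 4 arrays: with any of them left out (replicate 2 or 3, of 2D or of 3D), limma called 0 probe sets on the whole array, while 4683 to 10892 had an unadjusted p under 0.05.

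**Figure D1:**
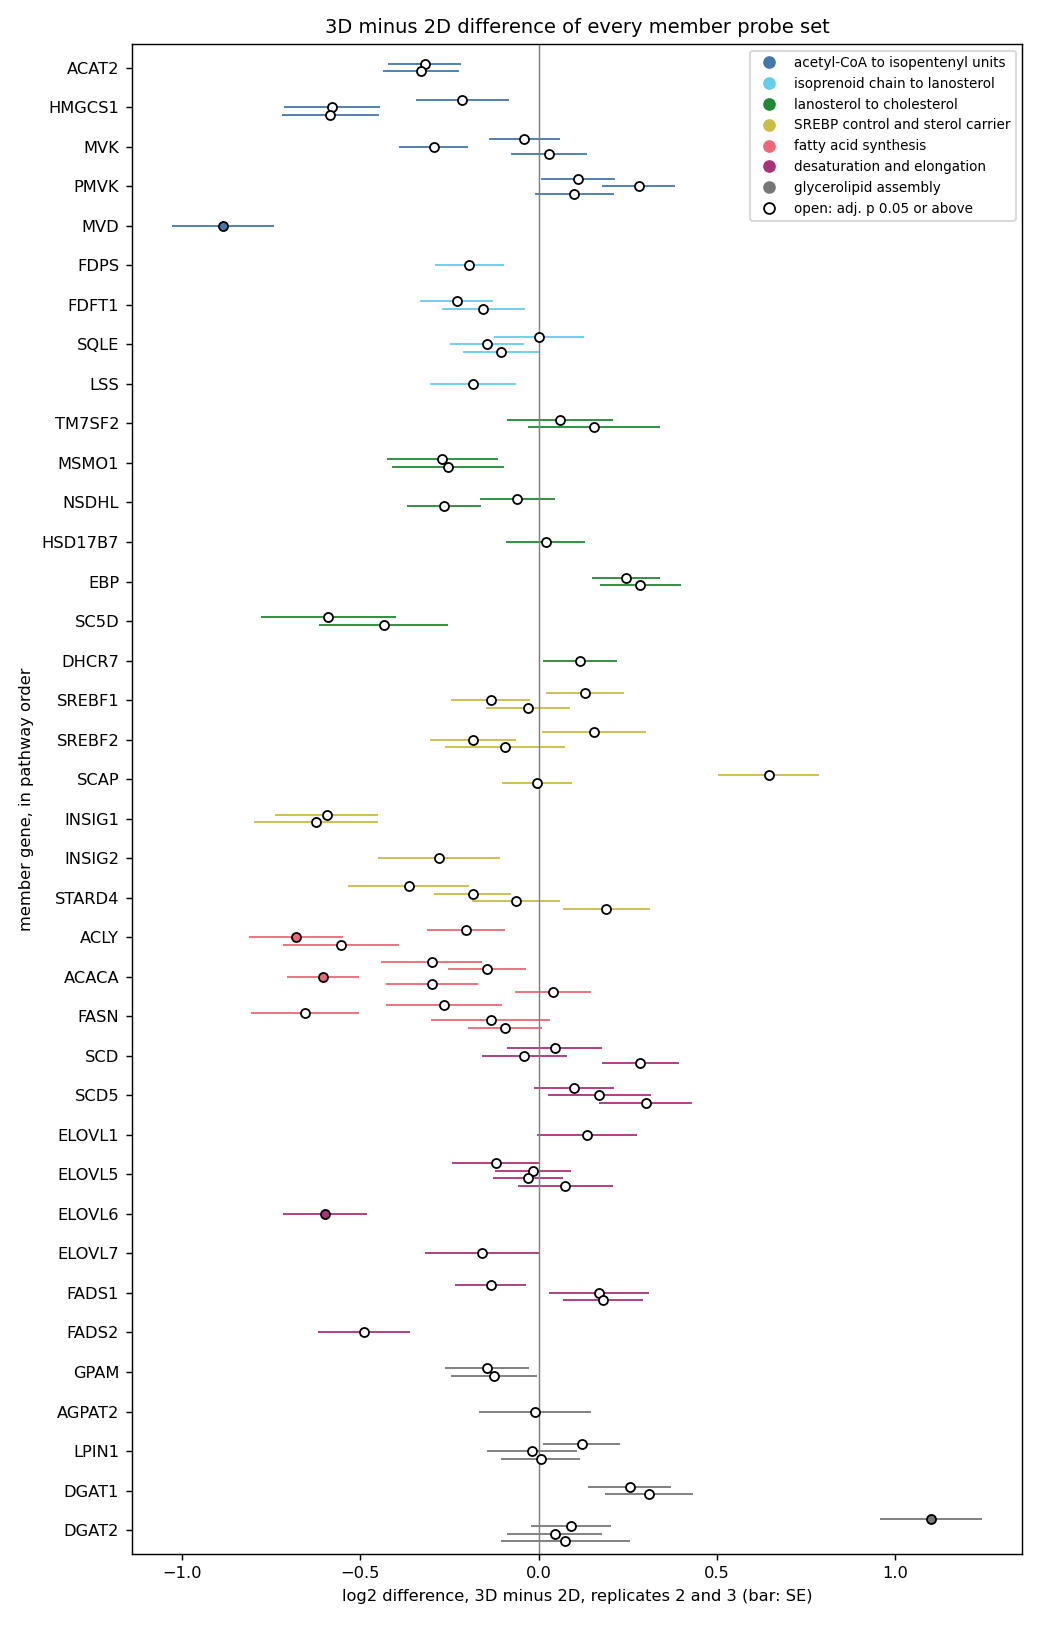
Log2 difference between 3D and 2D (x axis, with the standard error as a bar) for all 87 probe sets, by gene in pathway order (y axis); filled points passed at a limma adjusted p under 0.05 and colours mark the 7 functional classes. MVD, ACLY, ELOVL6 and DGAT2 have the filled points farthest out in their classes, and most open points lie closer to 0.

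The route from acetyl-CoA to isopentenyl units held the largest sterol gene difference. MVD encodes mevalonate diphosphate decarboxylase, which makes isopentenyl diphosphate. Its probe set read 10.73 and 10.57 in 2D and 9.60 and 9.93 in 3D (replicates 2 and 3 in that order, here and below). The groups did not overlap, and the gene was 1.85-fold lower in 3D, a log2 difference of -0.885 (n = 2 a group, SE 0.143, limma adjusted p = 0.0256). In replicate 1 MVD went the other way, from 8.98 in 2D to 9.59 in 3D. In a fit of all 6 arrays as deposited its difference was -0.39 (limma adjusted p = 1), less than the value from replicates 2 and 3 by more than 1.5 times.

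HMGCS1 encodes the synthase that condenses acetyl units into HMG-CoA, an early intermediate of the route. Its 3 probe sets were all lower in 3D without passing. One read 13.05 and 12.87 in 2D and 12.24 and 12.52 in 3D, a log2 difference of -0.58 (SE 0.136, limma adjusted p = 0.0633), and a second gave -0.585 (limma adjusted p = 0.0621). The third, with the highest mean level, gave -0.215. All 3 HMGCS1 probe sets were below 0 in replicate 1 as well, at -1.33 to -1.09.

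The thiolase gene ACAT2, whose product joins the first acetyl units, gave -0.32 and -0.33 on its 2 probe sets, with limma adjusted p of 0.127 and 0.129. Neither passed, though the arrays did not overlap: one of them read 12.55 and 12.45 in 2D and 12.15 and 12.21 in 3D. The mevalonate kinase gene MVK gave -0.295 to 0.03 over 3 probe sets. PMVK, which encodes the next kinase, gave 0.10 to 0.28 over 3 probe sets and 0.23 to 0.88 in replicate 1, so it was not lower in either set. In this class 1 of 5 measured genes was lower, 0 were higher and 4 did not pass.

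Of the 4 genes between the isoprenoid chain and lanosterol, 0 passed in limma, and 0 had an unadjusted p under 0.05. The largest difference was in FDFT1, which encodes squalene synthase. Its main probe set read 11.85 and 11.73 in 2D and 11.56 and 11.56 in 3D, a log2 difference of -0.23 (SE 0.102, limma adjusted p = 0.248). FDPS, the farnesyl diphosphate synthase gene, gave -0.195. LSS, which encodes the cyclase that forms lanosterol, gave -0.185, and SQLE, the squalene epoxidase gene, gave -0.145 to 0 over 3 probe sets. All 7 probe sets of these 4 genes were below 0 in replicate 1, against 24005 of all 42924 probe sets. They lay between -0.82 for LSS and -0.05 for FDPS, which was above the replicate 1 median of -0.14 over all probe sets. Of the 7, 6 were below 0 in both, against 31.1% of all probe sets. These 7 are readings of 4 genes.

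The 7 listed genes that turn lanosterol into cholesterol went in both directions, and 0 of them passed. An unadjusted limma p under 0.05 was found for 2 of them, against 3816 of all 15115 genes. The lanosterol demethylase gene CYP51A1 was not on this list and is given under the other observations. SC5D encodes the desaturase that makes 7-dehydrocholesterol. It read 11.00 and 10.82 in 2D and 10.05 and 10.59 in 3D, a log2 difference of -0.59 (SE 0.19, limma adjusted p = 0.129). The 3D arrays of SC5D lay farther apart than the 2D arrays, and without 3D replicate 2 the difference was -0.32. Its replicate 1 difference was 0.06. EBP, the sterol isomerase gene, gave 0.245 and 0.285 on its 2 probe sets (limma adjusted p of 0.198 and 0.202), with replicate 1 differences of -0.05 and -0.17.

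MSMO1, which encodes the C4-methyl oxidase, gave -0.27 and -0.255. Its 3D arrays again differed from each other, at 12.66 and 13.04 against 13.21 and 13.03 in 2D, so that the groups overlapped. The C4 decarboxylating dehydrogenase gene NSDHL gave -0.06 and -0.265. TM7SF2, which encodes a sterol C14 reductase, gave 0.06 and 0.155. HSD17B7, for the C4 ketoreductase, gave 0.02. DHCR7, for the final reduction of 7-dehydrocholesterol, gave 0.115 with replicates 2 and 3, but -1.37 in replicate 1, from 8.08 to 6.71.

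Among the control genes, differences were largest in SCAP and INSIG1 and opposite in direction. SCAP read 9.05 and 8.88 in 2D and 9.77 and 9.45 in 3D on its brighter probe set, a log2 difference of 0.645 (SE 0.142, limma adjusted p = 0.0541). This missed the threshold; with dim probe sets left out it passed (limma adjusted p = 0.0476). Its second probe set gave -0.005, the mean of both gave 0.32 (limma adjusted p = 0.106), and replicate 1 gave -0.37 and -0.70.

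INSIG1 is itself a well-known SREBP target and encodes a protein that retains the SREBP-SCAP complex. It read 11.19 and 11.15 in 2D and 10.39 and 10.76 in 3D. The groups did not overlap, but the log2 difference of -0.595 (SE 0.144) did not pass (limma adjusted p = 0.068), nor did -0.625 on the other probe set (limma adjusted p = 0.0926). INSIG1 was lower in replicate 1 on both, from 10.53 to 8.97 and from 9.05 to 7.52. Both probe sets were thus lower in 3D on both scales.

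The SREBP genes themselves differed little in replicates 2 and 3. SREBF1, whose SREBP-1c form is known mainly for fatty acid genes, gave -0.135 to 0.13 over 3 probe sets. SREBF2, known mainly for sterol genes, gave -0.185 to 0.155 over 3. In replicate 1 the SREBF2 probe sets were all lower in 3D, by -1.70, -0.91 and -1.0. SREBF1 differed there by -0.07, -0.68 and -3.0, so its probe sets did not share a size. The -3.0 ran from 5.83 in 2D to 2.83 in 3D, and the -0.68 from 2.85 to 2.17. Both 3D values lay below the lower quartile of that array, 3.38, so these sizes are uncertain. INSIG2, the second retention protein, gave -0.28 and a replicate 1 difference of 0.30. STARD4, a cytosolic sterol carrier, gave -0.365 to 0.19 over 4 probe sets. None of these 6 control genes passed (0 of 6, with 2 at an unadjusted limma p under 0.05).

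Of the 3 measured fatty acid synthesis genes 0 passed in limma by their brightest probe set (0 at an unadjusted p under 0.05), while 2 of their 12 probe sets passed. Of these 12 probe sets for ACLY, ACACA and FASN, 11 were below 0 both on replicates 2 and 3 and in replicate 1, against 31.1% of all probe sets. Both 3D arrays lay below both 2D arrays on 8, against 26.7% of all probe sets. Over all 87 probe sets 31 lay entirely below and 13 entirely above, against backgrounds of 26.7% and 25.1%. Probe sets of 1 gene share their target gene, so these 12 are readings of 3 genes.

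ACLY encodes ATP citrate lyase, which supplies cytosolic acetyl-CoA to both routes. One of its 3 probe sets passed: it read 11.81 and 11.53 in 2D and 11.06 and 10.92 in 3D, a log2 difference of -0.68 (SE 0.132, limma adjusted p = 0.0398), or 1.60-fold lower. A second gave -0.555 (limma adjusted p = 0.104) and the brightest gave -0.205 (limma adjusted p = 0.331). As the mean of its probe sets ACLY differed by -0.48 and did not pass (limma adjusted p = 0.0531).

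ACACA encodes acetyl-CoA carboxylase alpha, which makes malonyl-CoA. One of its 5 probe sets passed. It read 8.12 and 8.13 in 2D and 7.47 and 7.57 in 3D, a log2 difference of -0.605 (SE 0.101, limma adjusted p = 0.0278), or 1.52-fold lower. On the brightest ACACA probe set the arrays read 10.61 and 10.41 in 2D and 10.36 and 10.06 in 3D, a difference of -0.30 (SE 0.141, limma adjusted p = 0.273). The other 3 gave -0.30, -0.145 and 0.04, and the last of these lay below the lower quartile of each tested array, where a difference is hard to measure. The mean of the 5 did not pass, at -0.26 (limma adjusted p = 0.128).

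FASN, the fatty acid synthase gene, did not pass on any of its 4 probe sets, whose log2 differences ran from -0.655 to -0.095. The lowest came from 10.69 and 10.44 in 2D and 10.07 and 9.75 in 3D (SE 0.151, limma adjusted p = 0.061). In replicate 1 all 4 FASN probe sets were much lower in 3D, from 11.29 to 8.80 on the brightest, and the 4 differences lay between -2.50 and -2.08. The FASN differences were thus larger in replicate 1 than on the tested arrays, on scales that may not be comparable.

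**Figure D2:**
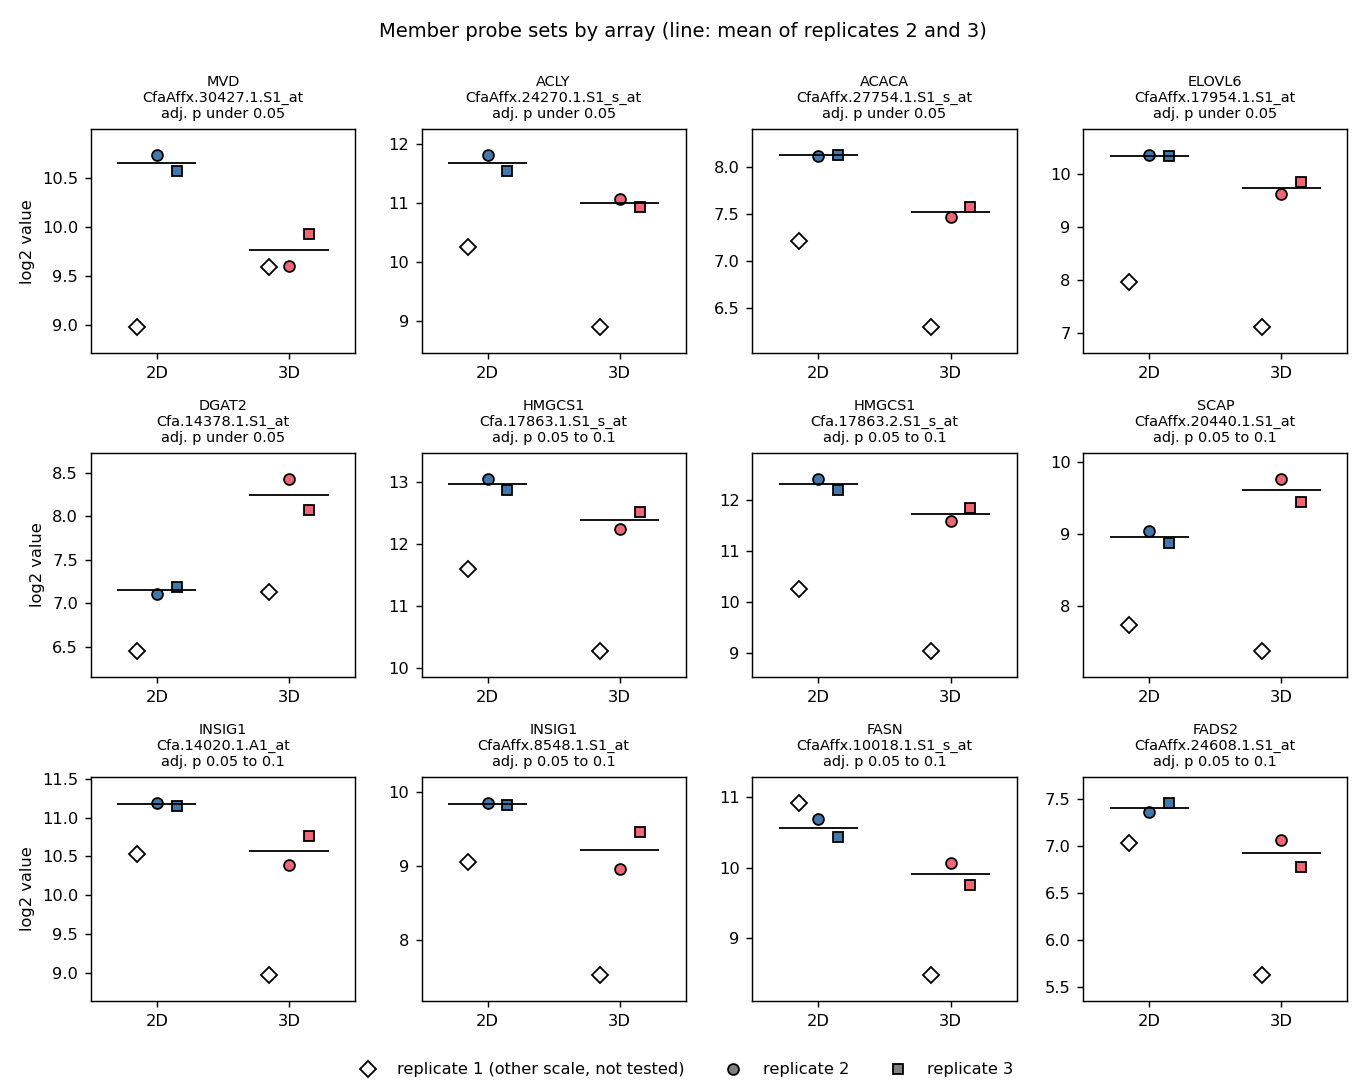
Log2 value on each array (y axis) in 2D and 3D for the 5 probe sets that passed and the 7 with a limma adjusted p between 0.05 and 0.1; circles and squares are replicates 2 and 3, lines their mean, and open diamonds replicate 1, which is on another scale. In each panel both filled 3D points lie on the same side of both filled 2D points, which choosing panels by adjusted p on these arrays favours. The diamonds go the other way for MVD and SCAP.

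Among the desaturases and elongases, ELOVL6 was lower. It encodes the elongase that extends palmitate to stearate and is a known SREBP-1c target. The arrays read 10.35 and 10.32 in 2D and 9.62 and 9.85 in 3D, a log2 difference of -0.60 (n = 2 a group, SE 0.117, limma adjusted p = 0.0407), or 1.52-fold lower. ELOVL6 fell from 7.97 to 7.11 in replicate 1. With trend and robust priors its limma adjusted p was 0.055, so that the call was lost. FADS2, the delta-6 desaturase gene, read 7.36 and 7.46 in 2D and 7.06 and 6.78 in 3D, a difference of -0.49 that did not pass (SE 0.129, limma adjusted p = 0.082). Its replicate 1 difference was -1.41.

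SCD, which encodes the stearoyl-CoA desaturase that makes oleate, did not follow ACLY and ELOVL6 on replicates 2 and 3. Its brightest probe set read 13.56 and 13.24 in 2D and 13.43 and 13.46 in 3D, with a difference of 0.045 (SE 0.133, limma adjusted p = 0.894), and the other 2 gave -0.04 and 0.285. In replicate 1 all 3 were lower in 3D, with differences of -1.64 to -1.31. SCD5, a second stearoyl-CoA desaturase, behaved alike, with 0.10 to 0.30 over 3 probe sets and -1.23 to -1.04 in replicate 1. Neither gene passed.

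The other elongases did not pass either. ELOVL1, which extends saturated very long chains, gave 0.135. ELOVL5, which extends polyunsaturated chains, gave -0.12 to 0.075 over 4 probe sets, and ELOVL7 gave -0.16. FADS1, the delta-5 desaturase gene, gave -0.135 to 0.18 over 3 probe sets. One FADS1 probe set differed by -4.26 in replicate 1, where its 3D value of -0.15 was below 0 on that scale and its levels on the tested arrays lay below their lower quartiles, so the size is uncertain. In this class 1 of 8 genes was lower, 0 were higher and 7 did not pass.

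Glycerolipid assembly held the gene that rose. DGAT2 encodes a diacylglycerol acyltransferase, which completes triglyceride. One of its 4 probe sets read 7.11 and 7.19 in 2D and 8.43 and 8.07 in 3D, so that both 3D arrays were well above both 2D arrays. The log2 difference was 1.10 (n = 2 a group, SE 0.143, limma adjusted p = 0.0161), or 2.14-fold. The same probe set went from 6.45 to 7.13 in replicate 1. The other 3 DGAT2 probe sets gave 0.09, 0.045 and 0.075, with limma adjusted p of 0.708, 0.893 and 0.867. As the mean of its 4 probe sets DGAT2 differed by 0.33 and did not pass (limma adjusted p = 0.128). The rise was thus read by 1 probe set of 4; the transcript part that each reads was not used here.

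DGAT1, which encodes an unrelated enzyme with the same activity, gave 0.255 and 0.31 on its 2 probe sets, the second from 8.15 and 8.14 in 2D to 8.59 and 8.32 in 3D. Neither passed (limma adjusted p of 0.256 and 0.203), and replicate 1 gave -0.01 and 0.07. GPAM, for the first acylation of glycerol-3-phosphate in mitochondria, gave -0.145 and -0.125, with replicate 1 differences of 1.0 and 0.47. AGPAT2, for the second acylation, gave -0.01. LPIN1, for the phosphatidate phosphatase lipin-1, gave -0.02 to 0.12 over 3 probe sets. In this class 1 of 5 genes was higher, 0 were lower and 4 did not pass.

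Of the 87 probe sets 46 (52.9%) were lower in 3D both in replicate 1 and on the tested arrays, against 31.1% of all probe sets. By representing probe set this held for 18 of the 38 genes (47.4%), against 31.1% of all genes. In replicate 1 alone, of the 87 probe sets 31 had a difference of -1 or lower, against 19.7% of all probe sets, and 1, for GPAM, had a difference of 1 or higher, against 14.3%. The median was -0.52 over the 87 and -0.14 over all 42924 probe sets. By representing probe set 11 of the 38 genes were at -1 or lower, against 2621 of all 15115 genes. Every probe set was at -1 or lower for HMGCS1, NSDHL, DHCR7, INSIG1, ACLY, FASN, SCD, SCD5 and FADS2. How often this holds was not counted over all genes, so it does not set these genes apart. Among them DHCR7 and SCD5 were above 0 and SCD had both signs on the tested arrays. With the replicate 1 arrays quantile normalized to each other, 25 of the 87 probe sets were at -1 or lower. The matching share of all probe sets is not given here.

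By class, the median replicate 1 difference of the genes was lowest in fatty acid synthesis, at -1.80 over 3 genes, followed by desaturation and elongation at -0.845 over 8. It was -0.35 over the 16 sterol enzyme genes, -0.33 over the 6 control genes and -0.01 over the 5 glycerolipid genes. The matching medians on replicates 2 and 3 were -0.265, -0.1275, -0.1225, -0.075 and 0.12. Each replicate 1 value rests on 1 array per group, and the difference between the sets of arrays was not tested.

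**Figure D3:**
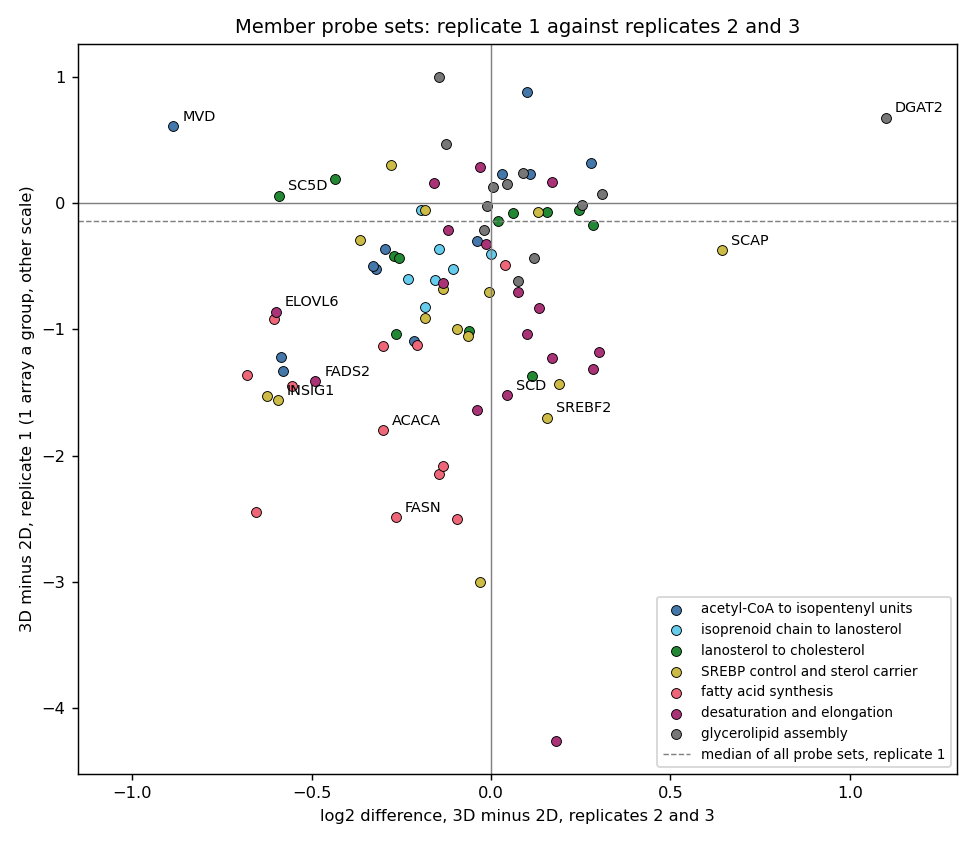
Difference between 3D and 2D in replicate 1 (y axis, 1 array per group, on its own scale) against the log2 difference on replicates 2 and 3 (x axis) for the 87 probe sets, coloured by class, with the array-wide replicate 1 median of -0.14 dashed. The probe sets of FASN, ACACA and ACLY lie below 0 on the y axis, and MVD is at the upper left with -0.885 and 0.61.

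Probe sets of a gene often disagreed in size. Of 27 genes with 2 or more probe sets, 10 had log2 differences of both signs on replicates 2 and 3, and 3 (ACLY, ACACA and DGAT2) had a called probe set, while 0 had every probe set called. The widest spread was in DGAT2, from 0.045 to 1.10, followed by SCAP, from -0.005 to 0.645, and ACACA, from -0.605 to 0.04. INSIG1 and ACAT2 were among the narrowest, spanning 0.03 and 0.01. MVD and ELOVL6 have 1 probe set each, so their calls have no second reading. Of the 87 probe sets 6 lay below the lower quartile on all 4 tested arrays.

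The distance of each 3D array from 2D differed by gene. Without 3D replicate 2, whose spike-in controls were brightest, the differences were -0.72 for MVD, -0.485 for ELOVL6 and 0.92 for DGAT2. Without 3D replicate 3 they were -1.05, -0.715 and 1.28 in the same order. The called ACLY probe set went the other way, with -0.75 without 3D replicate 2 and -0.61 without 3D replicate 3. Over the 87 probe sets 3D replicate 2 lay below 3D replicate 3 on 45, or 51.7%. The 4 genes kept their direction in each case, which was certain beforehand because the groups did not overlap on these probe sets. The part of the spike-in and 3' to 5' differences in these results was not tested.

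A list of 79 other lipid genes covered further sterol synthesis enzymes, SREBP proteases and partners, lipoprotein uptake, sterol transport and efflux, and fatty acid activation. It also held further elongases and desaturases, further glycerolipid enzymes and lipid droplet genes, and gave 70 measured genes. Of these 1 was higher, 2 were lower and 67 did not pass, against 4.2% and 3.09% of all genes, and their median log2 difference was 0.08. FADS3, which encodes a desaturase related to FADS1 and FADS2, fell on both of its probe sets. The brighter read 9.96 and 9.89 in 2D and 8.90 and 8.68 in 3D, a log2 difference of -1.135 (SE 0.117, limma adjusted p = 0.0104). The other FADS3 probe set differed by -0.705 (limma adjusted p = 0.0174), and replicate 1 gave -1.16 and -1.28. ELOVL4, an elongase for very long chains, was lower (-0.625, SE 0.113, limma adjusted p = 0.034), but differed by 0.87 in replicate 1. VLDLR, a lipoprotein receptor, was higher on 1 of its 3 probe sets (0.905, SE 0.146, limma adjusted p = 0.0256), but lower in replicate 1 on all 3, by -0.96 to -0.84.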

How the data were processed

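The authors deposited 1 log2 value per probe set and array; per the submitters' processing notes RMA and limma were used, which name no version and no probe set definition. The log base rests on RMA and the range of the values. Arrays carry no counts, so their number limits the precision.

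Of 43035 probe sets, 111 controls were left out, leaving 42924: 29254 with 1 gene symbol, 439 with several (not named) and 13231 unnamed here. Of the 87 member probe sets, 86 had an Entrez identifier in the gene table of UU_Cfam_GSD_1.0, each with the same symbol. Two-sided limma 3.58.1 tests (lmFit, eBayes; R 4.3.3) used replicates 2 and 3 without a block (2 residual and 4.06 prior degrees of freedom), Benjamini-Hochberg over all probe sets, with no level filter. On simulated data with the same design the test recovered 26% of 100 probe sets shifted by 1 and 75% of 100 shifted by 2 on the log2 scale. All others were left unshifted, while 2837 probe sets passed in the real data. The adjusted threshold was thus stricter in the simulation, and these shares do not carry over to the real test.

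Each gene took the probe set of highest mean over all 6 arrays, a choice that uses the 3D values too. Values on each tested array are given for genes with a called probe set and for the largest difference per class. Replicate 1 values or differences are given for only some of them. Others with such values (those with an adjusted p from 0.05 to 0.1, and a few more) were chosen after their values were seen. Members and lists were chosen with earlier results of these data known. Tables were joined in Python 3.11.15 (pandas 2.3.3) and drawn with matplotlib 3.10.9. Alternatives were other scalings, filters, priors, probe set rules, a replicate block and leaving out each array.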

Additional observations from a re-analysis of the deposited data

How the results depend on the processing

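With a replicate block limma called 0 probe sets on the whole array (8325 at an unadjusted p under 0.05) and hence 0 of the lipid genes, higher or lower; the replicate numbers are not stated to mark a shared source, and same-numbered deviations correlated at 0.0013. All 6 arrays as deposited gave 0 (105 unadjusted), with a replicate block 0 (2723), quantile normalized 2, of which 0 were lipid genes, and quantile normalized with a replicate block 0 (3517); these mix the scales. Leaving out each tested array gave 0 to 0. Averaging the probe sets of each gene, 2 genes were lower and 0 were higher. Without dim probe sets 2 genes and 2 probe sets were higher, SCAP being added. With trend and robust priors 1 gene was lower. The 5 called probe sets kept their direction under each of these alternatives. Leaving out an array could not change it, since the groups did not overlap on these probe sets. Apart from averaging, their differences lay between -1.05 and -0.39 for MVD, -0.91 and -0.54 for ACLY, -0.71 and -0.555 for ACACA, -0.715 and -0.485 for ELOVL6, and 0.92 and 1.28 for DGAT2; averaged over each gene's probe sets they were -0.48 for ACLY, -0.26 for ACACA and 0.33 for DGAT2. Median centring and the probe set with the highest mean over the 4 tested arrays changed no count of lipid genes. With 2 arrays per group a difference of 1 on the log2 scale can be missed, but the simulated data do not show how often. Far fewer probe sets were changed there than the 2837 that passed on the real arrays. Smaller differences passed on the real arrays, such as -0.60 for ELOVL6. Promoter motifs were planned but not run.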

Other observations

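In the list of other lipid genes, 2 further genes passed on a probe set that does not represent them; both were picked after their values were seen. MLXIPL, which encodes the carbohydrate-responsive factor ChREBP, a known activator of ACLY, ACACA and FASN, was higher in 3D on 1 probe set, by 1.045 (limma adjusted p = 0.00975), with a replicate 1 difference of 1.92, while its representing probe set gave 0.055 and 0.80 and another gave 0.505 (limma adjusted p = 0.0969) and -1.25. CYP51A1, the lanosterol demethylase gene, was lower on 1 probe set, by -0.68 (limma adjusted p = 0.0331), with a replicate 1 difference of 0.19; its other 2 gave -0.44 and -0.51 without passing. Over the 152 probe sets of that list, 2 were higher and 4 lower, against 3.65% and 2.96% of all probe sets.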
